A study of Saccharomyces cerevisiae with 48 samples.

Results

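Cells of 45 and 50 fl were compared by their mRNA, across all 3301 counted genes, in 6 of the 48 libraries of the series (3 at each size). These were all mRNA libraries labelled with either size. Diploid budding yeast (Saccharomyces cerevisiae) of the laboratory strain BY4743 was grown in YPD, a rich glucose medium, at 30 °C, without any other treatment or mutation named in the labels. Newborn unbudded cells were collected by centrifugal elutriation, which separates cells by size, and left to grow to a set volume between 40 and 75 fl. Fractions that had reached the same volume were combined, so each replicate (A, B or C) is a pool of several fractions rather than 1 culture, and its poly(A) RNA gave 1 library. Ribosome footprints, the RNA pieces that ribosomes shield from nuclease, were sequenced from the same sizes.

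In late G1 a budding yeast cell decides whether to start a new division, a point called Start. The G1 cyclin Cln3 and its kinase relieve the repressor Whi5 from SBF (Swi4 and Swi6), and SBF and the related factor MBF (Mbp1 and Swi6) then switch on a large set of G1/S genes. Among these are the cyclins CLN1, CLN2, CLB5 and CLB6, enzymes of DNA synthesis and cohesin subunits, while histone genes follow in S phase. The step from 45 to 50 fl was described for this series as the one in which G1/S transcription begins.

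The 45 fl libraries held 5623568 (replicate A), 2786703 (B) and 4818851 (C) counted reads, and those of 50 fl held 5759377, 3255957 and 3423069. Each counted gene had at least 10 reads in every mRNA library, so that none stood at 0, and genes outside the count table entered no test. No pair of replicates of the same size looked like 1 library deposited again: the chi-square of their counts was 95.5 to 298 times its degrees of freedom. Pairs across the sizes, such as 45 fl replicate B with 50 fl replicate C, were not checked in this way.

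The size labels did not order the libraries well. Levels below are log2 CPM, the log2 of a gene's reads scaled to a common library size. Across genes, which are not independent replicates, the library of 50 fl replicate C was closest to 45 fl replicate B (Pearson r = 0.98, median absolute difference 0.19 log2 per gene). Its r with the other libraries of 50 fl was 0.82 and 0.92. Among the libraries of 40 to 55 fl, 50 fl replicate A was closest to 55 fl replicate A (r = 0.94), and 50 fl replicate B to 55 fl replicate C (r = 0.97). Hence no library of 50 fl had another library of its own size as its nearest. Values without replicate C of 50 fl are added where leaving it out changes a call or moves a list's median by more than 1.5 times. That library was singled out from these same values for its likeness to a 45 fl library, so leaving it out tends to widen the differences. Calls gained without it describe how far results rest on that library and are no separate support.

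**Figure D1:**
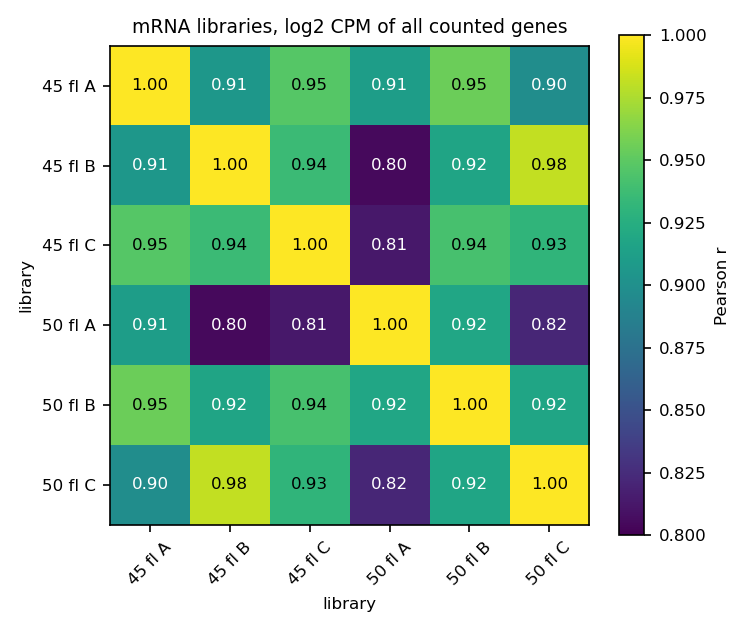
Pearson r of log2 CPM over the 3301 counted genes between the 6 mRNA libraries of 45 and 50 fl (colour and number in each cell). The pair of 45 fl B and 50 fl C reaches 0.98, the highest off the diagonal, while 50 fl A and 45 fl B give the lowest, 0.80.

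HSL1 rose from 45 to 50 fl, and it was the only gene of 3301 (0.0303%) to pass, at an adjusted p under 0.05 by edgeR's quasi-likelihood test. HSL1 (YKL101W, chromosome XI, 248920 to 253476 in R64) encodes a protein kinase at the bud neck that promotes the degradation of the Cdk inhibitor kinase Swe1 in the morphogenesis checkpoint. Its level was 5.56, 5.70 and 5.10 in replicates A, B and C of 45 fl and 8.22, 8.22 and 7.26 in those of 50 fl. All 3 libraries of 50 fl lay above all 3 of 45 fl by more than 1.5 log2, including the replicate C library that otherwise resembled 45 fl. The fitted log2 fold change was 2.51 (SE 0.33, adjusted p = 0.000262), a rise of 5.71-fold. Leaving out any 1 of the 6 libraries kept the adjusted p between 4.38e-05 and 0.0109. It no longer passed when replicate B of every size was left out or when the 6 libraries were fitted alone, with an adjusted p of at most 0.108.

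Cells of 40 fl had a mean HSL1 level of 5.52 ± 0.44 (SD, n = 3) and cells of 45 fl 5.45 ± 0.31. The mean was then 7.90 ± 0.56 at 50 fl, and cells of 55 and 60 fl had 8.97 ± 0.06 and 9.27 ± 0.38. The 3 larger sizes stayed between 8.55 and 8.58. Thus most of the range over the 8 sizes was crossed between 45 and 50 fl. The test of the difference between this step and the one before it gave 2.54 log2 (SE 0.59, unadjusted p = 0.000254), the smallest p of all genes, but an adjusted p of 0.839 by edgeR, and DESeq2 gave an adjusted p of 0.0379. Against the step after it, the difference was 1.51 (SE 0.52, unadjusted p = 0.00827, adjusted p = 1.0). These steps share libraries (45 fl with the first, 50 fl with the second).

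**Figure D2:**
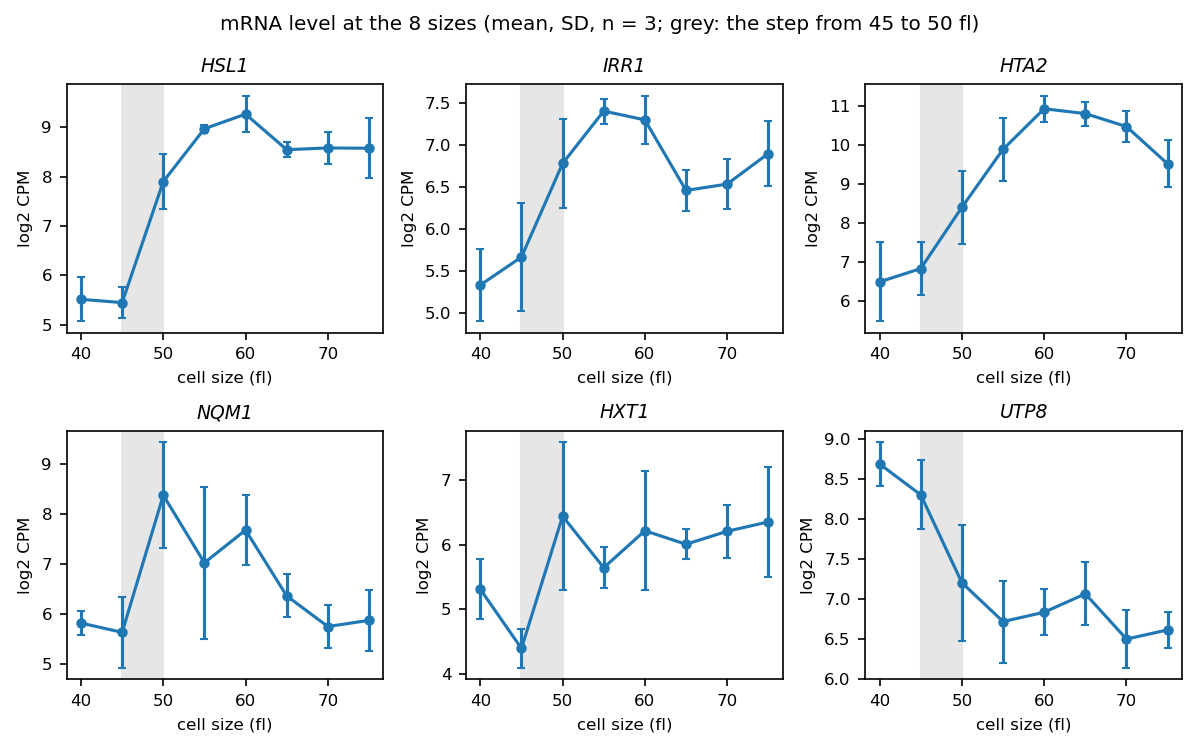
Mean mRNA level (log2 CPM) of 6 genes at the 8 cell sizes in fl, with the SD over 3 libraries as bars and the step from 45 to 50 fl in grey. HSL1 stays near 5.5 at 40 and 45 fl and reaches 7.90 at 50 fl, IRR1 and HTA2 go on to higher means at 55 fl, and NQM1 has its highest mean, 8.37, at 50 fl.

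No gene was called lower at 50 fl: 0 of 3301 passed in that direction by edgeR, by DESeq2 or by limma-voom. Counts at an unadjusted p under 0.05 by edgeR were 155 higher (4.7%) and 101 lower (3.06%), 256 in all (7.76%). In 180 genes (5.45%) all libraries of 50 fl lay above all of 45 fl, and in 142 (4.3%) below. The median fold change over all genes was 0.00 log2, and 50.4% of genes had a fitted value above 0.

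DESeq2 called 9 genes (0.273%), all higher at 50 fl. They were HSL1 and 8 more that did not pass by edgeR, where their adjusted p ran from 0.0708 to 0.222: HXT1, LAM4, NQM1, FMP16, ABF1, RIF1, MDH1 and MIG1. LAM4, ABF1 and RIF1 are named here after their values were seen. HXT1 (YHR094C, chromosome VIII), a low-affinity glucose transporter, stood at 4.41, 4.69 and 4.10 at 45 fl and at 7.66, 6.24 and 5.41 at 50 fl. These do not overlap, although the highest and lowest 50 fl libraries were more than 2 log2 apart. Its fitted log2 fold change was 2.37 (SE 0.49, adjusted p = 0.0708 by edgeR and 0.000345 by DESeq2).

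NQM1 (YGR043C, chromosome VII), a transaldolase paralogue that is not essential, stood at 6.29, 4.88 and 5.72, and then at 9.43, 8.39 and 7.31. FMP16 (YDR070C, chromosome IV), a protein detected in mitochondria, stood at 6.86, 5.55 and 5.61, and then at 9.56, 8.25 and 7.56. In both, replicate A was the highest and replicate C the lowest library of 50 fl, and the groups did not overlap. Their fitted log2 fold changes were 2.88 (SE 0.61, adjusted p = 0.0708 by edgeR) and 2.56 (SE 0.57, adjusted p = 0.101).

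LAM4, a sterol transfer protein at contacts of the endoplasmic reticulum with the plasma membrane, stood at 6.54, 6.50 and 5.97 at 45 fl and at 8.26, 7.33 and 7.02 at 50 fl. MDH1, the mitochondrial malate dehydrogenase, stood at 5.92, 4.94 and 4.84 and then at 8.12, 6.48 and 5.93. For MDH1 the lowest library of 50 fl and the highest of 45 fl were nearly level. ABF1, a general regulatory factor that binds promoters and origins, had a fitted change of 1.22 (SE 0.29, adjusted p = 0.161), and RIF1, a telomere-binding regulator of replication timing, 0.93 (SE 0.23, adjusted p = 0.193). MIG1, a repressor of glucose-repressed genes, had 1.25 (SE 0.32, adjusted p = 0.222).

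**Figure D3:**
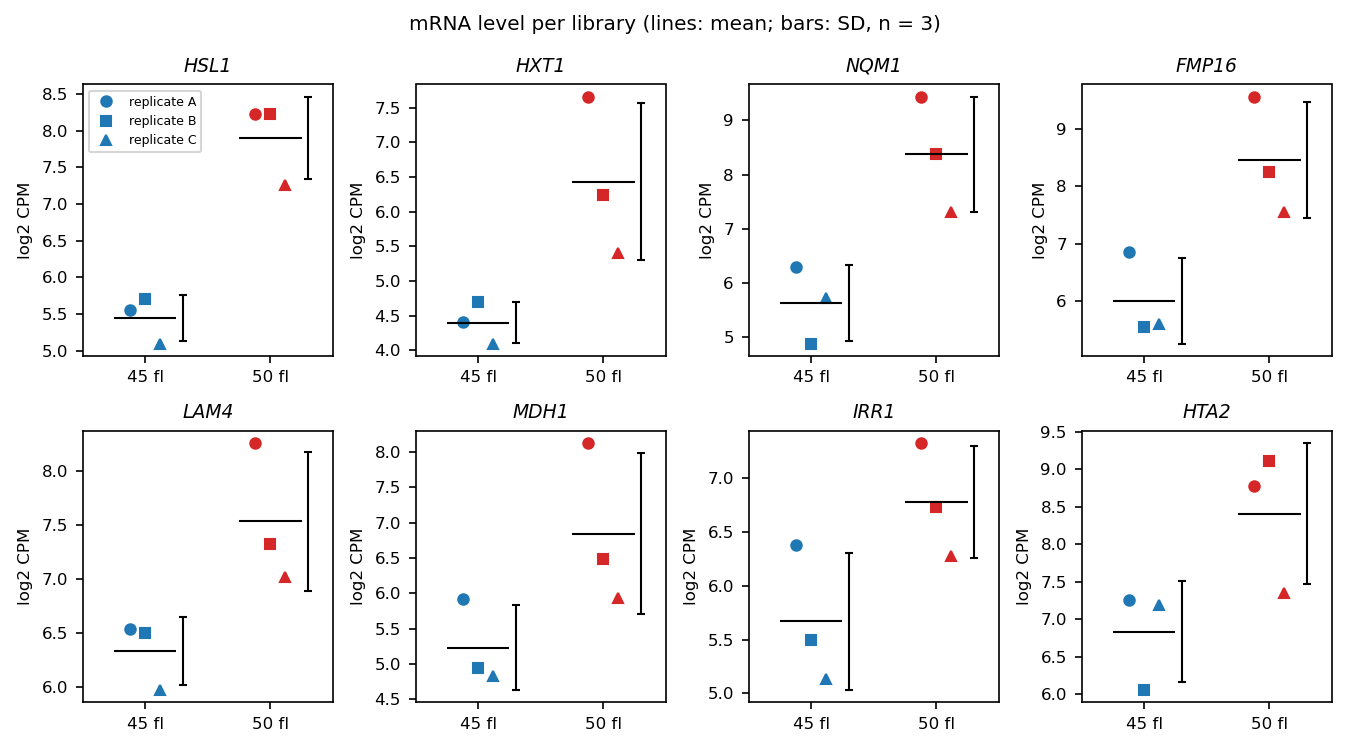
mRNA level (log2 CPM) of 8 genes in each library of 45 fl (blue) and 50 fl (red), with the symbol giving the replicate, a line for the mean and a bar for the SD (n = 3). The sizes do not overlap in 7 of the panels, with IRR1 as the exception, and replicate C is the lowest library of 50 fl in all 8.

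NQM1, FMP16 and HXT1 had the smallest p in the test of this step against the next. Between 50 and 55 fl the mean of NQM1 went from 8.37 ± 1.06 to 7.02 ± 1.53 (SD, n = 3 each), that of FMP16 from 8.45 ± 1.01 to 7.40 ± 1.03, and that of HXT1 from 6.44 ± 1.14 to 5.64 ± 0.32. The differences between steps were 3.92 (SE 0.94), 3.60 (SE 0.89) and 3.45 log2 (SE 0.77), each with an adjusted p of 0.453 by edgeR. Without replicate A of every size, NQM1 and FMP16 passed (adjusted p = 0.00504 each), while HXT1 had 1.85 and did not. Across all genes edgeR called 0 differences between this step and the step before (123 at an unadjusted p under 0.05, 3.73%) and 0 against the step after (79, 2.39%). DESeq2 called 1 in each, HSL1 before and HXT1 after.

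Without replicate C of 50 fl, edgeR called 28 genes higher (0.848%) and 7 lower (0.212%), 35 in all (1.06%). Leaving out any other single library of the 6 gave 1 call each time. HSL1 was among them (log2 fold change 2.79, adjusted p = 4.38e-05), as were HXT1, LAM4, ABF1, NQM1, FMP16, MDH1 and RIF1. The lower genes were DIM1, NOP13, UTP8, TMA16 and YAR1, which act in ribosome assembly, the survival factor SVF1 and the biotin synthase BIO2. Genes of respiration were among the higher ones: COR1 and CYT1 of complex III and LPD1, the dihydrolipoyl dehydrogenase of the pyruvate and 2-oxoglutarate dehydrogenase complexes. When 45 fl replicate B was left out as well, a choice made after seeing how alike these libraries were, 5 genes were called higher (HSL1, ABF1, HXT1, LAM4 and RIF1) and DIM1 lower.

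Of the 62 listed targets of SBF and MBF, 16 were counted, and 0 of these passed by edgeR or DESeq2 in all 6 libraries, against the 1 gene (0.0303%) called by edgeR over all. The fitted value was above 0 in 15 of the 16, beside 50.4% of all genes, with a median of 0.68 log2 beside 0.00 over all genes. By edgeR 6 had an unadjusted p under 0.05 and a higher level at 50 fl, beside 4.7% of all genes. The mean level of the 16 was 6.62, 6.56 and 6.23 in the libraries of 45 fl and 7.21, 7.26 and 6.82 in those of 50 fl. All 3 means of 50 fl lay above those of 45 fl, with replicate C the lowest at both sizes. Without replicate C of 50 fl the median was 0.82, and IRR1 was called, where 0.848% of all genes were called higher. The rise was not particular to this step. With all libraries, the median of the 16 was 0.46 from 40 to 45 fl and 0.51 from 50 to 55 fl. Over all genes these medians were 0.01 and -0.02. Both neighbouring steps share libraries with this one.

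IRR1, the Scc3 subunit of cohesin, stood at 6.38, 5.50 and 5.13 at 45 fl and at 7.32, 6.73 and 6.28 at 50 fl. Only its 50 fl replicate C library reached into the range of 45 fl. Its fitted change was 1.08 (SE 0.30, adjusted p = 0.431 by edgeR, and 0.0441 without replicate C of 50 fl). The cohesin ATPases SMC3 and SMC1 had 0.74 (SE 0.32) and 0.60 (SE 0.26), both with an adjusted p of 0.603, and of these genes SMC1 alone showed no overlap.

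The fitted change of the histone chaperone gene ASF1 was 1.13 (SE 0.45), and that of PRI2, the large subunit of DNA primase, 0.95 (SE 0.36). RAD27, the flap endonuclease that processes Okazaki fragments, had 0.66 (SE 0.35). CLB5, an S phase cyclin, stood at 6.43, 6.27 and 6.41 and then at 6.75, 6.88 and 6.32, with a fitted change of 0.30 (SE 0.22, adjusted p = 0.757). WTM2, a transcriptional modulator, was the 1 counted member with a value below 0 (-0.19, SE 0.26).

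The other 46 members of the list were not in the count table, and for these only the authors' deposited table of pooled replicates holds values, as log2 values centred on each gene's own average. Within the authors' deposited table, 45 of the 46 were higher at 50 than at 45 fl, with a median difference of 1.45, beside 0.19 over all 6487 ORFs with both values and 0.73 for the counted members. With pooled replicates there is no error to set beside these values. CLN1 and CLN2, the G1 cyclins that drive budding, stood at -3.05 and -3.31 at 45 fl in the authors' deposited table, and at -0.47 and -0.69 at 50 fl. PCL1, a cyclin of the kinase Pho85, went from -3.49 to 0.18 in the authors' deposited table, and TOS4, a chromatin-associated target of both factors, from -3.35 to -0.01. PCL1 and TOS4 are named here after their values were seen, as they had the largest differences of the 46 in the authors' deposited table (3.68 and 3.34).

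For genes of DNA synthesis, the authors' deposited table gave -1.57 and 0.03 for RNR1, the large subunit of ribonucleotide reductase, and -1.78 and 0.13 for the thymidylate synthase CDC21. MCD1, the cohesin subunit cleaved at anaphase, had -2.70 and -0.05 in the authors' deposited table. Values for the S phase cyclin CLB6 were -1.99 and -0.31 in the authors' deposited table, and those for NRM1, the co-repressor that shuts MBF targets off after G1, were -3.06 and -1.13. The authors' deposited table placed CLN1, CLN2, TOS4, MCD1 and CDC21 highest at 60 fl and PCL1 and RNR1 at 55 fl, above their 50 fl values. PRI1, the small subunit of primase, was the 1 member outside the counts with a lower value in the authors' deposited table, -0.06 and then -0.29.

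Among the regulators of Start, 10 of 26 were counted, 0 passed by edgeR or DESeq2, and 6 had a fitted value above 0 (median 0.17). SWI6, the shared subunit of SBF and MBF, stood at 6.89, 7.26 and 7.09 at 45 fl and at 7.48, 7.45 and 7.52 at 50 fl. These do not overlap, and the fitted change was 0.40 (SE 0.23, adjusted p = 0.721). SIC1, the inhibitor of S phase cyclin kinase, stood at 6.70, 7.40 and 6.93 and then at 7.47, 7.52 and 7.63, with no overlap, by a narrow margin. The fit gave 0.50 for SIC1 (SE 0.27, adjusted p = 0.699). CLN3, the upstream G1 cyclin, had 0.23 (SE 0.38) and MBP1, the DNA-binding subunit of MBF, 0.37 (SE 0.28), both with overlap. SWI4 and WHI5 were not counted, and in the authors' deposited table SWI4 stood at -0.59 and 0.37 and WHI5 at -0.52 and -0.31.

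Origin licensing genes, which load the replicative helicase in G1, were counted for 11 of 16, and 0 passed by edgeR or DESeq2 (8 above 0, median 0.15). ORC1 and ORC5, subunits of the origin recognition complex, had fitted changes in opposite directions, 0.43 (SE 0.25) and -0.40 (SE 0.23). MCM2, a helicase subunit, had 0.17 (SE 0.21).

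Core histone genes, which belong to S phase, had 7 of 8 counted and 0 passing by edgeR or DESeq2, with 7 of 7 values above 0 and a median of 0.77 log2. Reads of near-identical copies may have been divided between them, so that single histone genes are uncertain. The mean of the 7 genes was 7.89, 6.94 and 7.77 at 45 fl, and 8.67, 8.80 and 7.61 at 50 fl. Replicates A and B of 50 fl lay above every 45 fl library, and replicate C below 2 of them. HTA2, an H2A gene, stood at 7.25, 6.05 and 7.18 and then at 8.77, 9.10 and 7.34. Its fitted change was 1.66 (SE 0.50, adjusted p = 0.431, and 0.0445 without replicate C of 50 fl), and its mean of 8.41 at 50 fl lay below those of the next sizes, 9.89 and 10.94. HHF2, an H4 gene, had 1.02 (SE 0.42), and HTA1, the other H2A gene, 0.60 (SE 0.37).

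Spindle and kinetochore genes had 13 of 37 counted, 12 above 0 (median 0.42) and 0 passing by edgeR or DESeq2. In 5 of the 13 all libraries of 50 fl lay above those of 45 fl, beside 5.45% of all genes. TUB2, beta-tubulin, stood at 5.70, 5.57 and 4.87 and then at 7.08, 6.67 and 5.64, where 50 fl replicate C overlapped 45 fl. TUB2 had a fitted change of 1.17 (SE 0.34, adjusted p = 0.431, and 0.0308 without that library). KAR3, a minus-end kinesin, stood at 5.77, 5.98 and 5.80 and then at 7.28, 6.44 and 6.79, with no overlap and a fitted change of 1.04 (SE 0.33, adjusted p = 0.441). SPC110 of the spindle pole body and MIF2 of the inner kinetochore had 0.94 and 0.93 (SE 0.36 each), without overlap.

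Bud emergence and septin genes were 16 counted of 29, of which 13 lay above 0 (median 0.11, and 0.07 without replicate C of 50 fl) and 0 passed by edgeR or DESeq2. BUD2, the GTPase activator of the bud site GTPase Rsr1, had 0.59 (SE 0.22, adjusted p = 0.567), and BEM2, a GTPase activator of polarised growth, 0.35 (SE 0.19).

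Markers of cells in other phases were read in the same pools. Of the CLB2 cluster, genes transcribed in G2 and M, 13 of 38 were counted and 12 lay above 0 (median 0.36), with 0 passing by edgeR or DESeq2. Their summed level was 546 to 630 CPM at 45 fl and 728 to 850 CPM at 50 fl, with replicate C the highest at 50 fl. MYO1, the myosin of the cytokinetic ring, had 0.89 (SE 0.41, no overlap) and BUD3, an axial bud site marker, 0.91 (SE 0.36, overlap). ALK1, a haspin-like kinase of mitosis, had means of 4.83 ± 0.45 and 5.55 ± 0.44 at the sizes compared (SD, n = 3), below 7.59 at 55 fl. The mitotic cyclin CLB2 itself was not counted and stood at -3.67 and -3.01 in the authors' deposited table, against 1.02 at 70 fl.

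Of the M/G1 and daughter-specific genes 6 of 23 were counted, with 314 to 429 CPM in sum at 45 fl and 452 to 489 CPM at 50 fl, and 6 of 6 above 0 (median 0.32, 0 passing by edgeR or DESeq2). CTS1, the chitinase that separates daughter cells, had 0.68 (SE 0.47). The quiescence list had 4 of 16 counted and overlapping sums (319 to 359 and 303 to 432 CPM). The lists for haploid and mating functions and for meiosis had 0 counted genes. How much cells of other phases took part in the values above was not tested. In pools of cells, a change in the share of cells that express a gene and a change in the RNA per cell cannot be told apart.

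**Figure D4:**
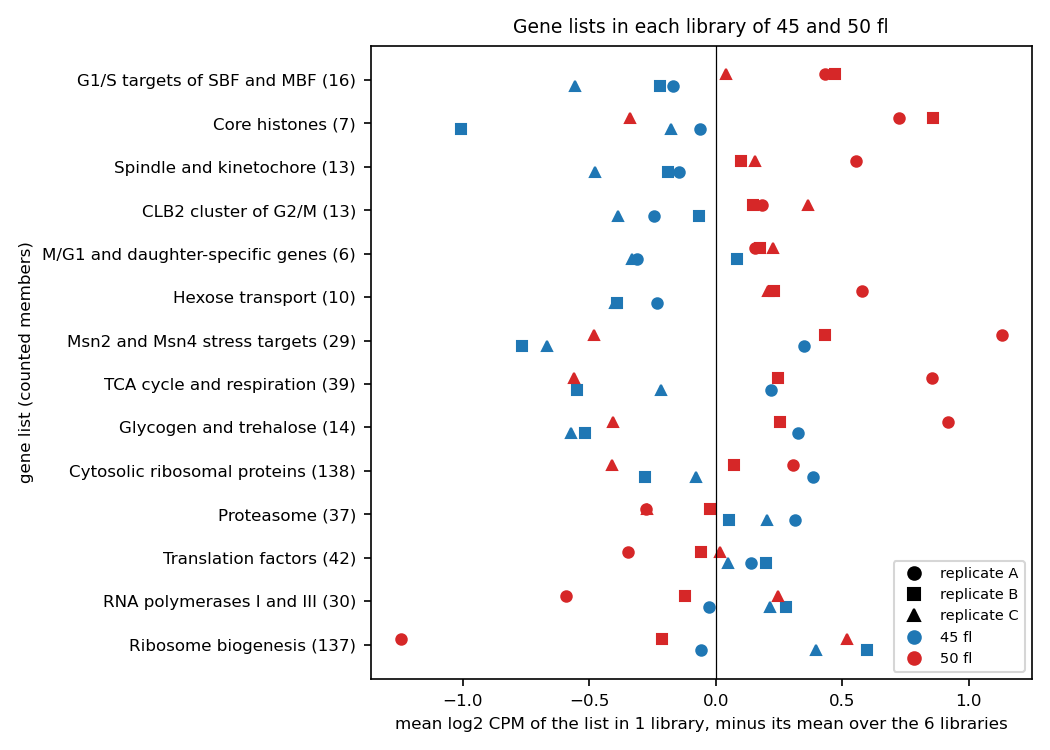
Mean log2 CPM of the counted members of 14 gene lists in each library of 45 fl (blue) and 50 fl (red), as the difference from the list's mean over the 6 libraries; symbols give the replicate and brackets the number of counted members. The G1/S, spindle, CLB2 cluster, M/G1 and hexose transport lists separate the sizes with 50 fl higher. Those of the proteasome and, narrowly, translation factors separate them with 50 fl lower. For ribosome biogenesis and the stress targets replicate C of 50 fl lies within the range of 45 fl.

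Ribosome biogenesis genes, which make and process ribosomal RNA, had 137 of 138 counted. Fitted values were below 0 in 137 of the 137 (median -0.47 log2, from -1.07 to -0.02), yet 0 passed by edgeR or DESeq2, and 11 showed no overlap (beside 4.3% of all genes). Their mean level was 8.67, 9.33 and 9.13 at 45 fl and 7.49, 8.52 and 9.25 at 50 fl. Replicates A and B of 50 fl lay below every library of 45 fl and replicate C within their range. Without that library the median was -0.996, and 3 members were called lower, beside 0.212% of all genes. With all libraries, the list's median was 0.10 from 40 to 45 fl and -0.41 from 50 to 55 fl. The same members stood lower at 50 fl in 136 of 138 cases in the authors' deposited table, beside 2192 of all 6487 ORFs. As that table pools replicates of the same series, it is no separate support.

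UTP8, a subunit of the small subunit processome, stood at 8.26, 7.90 and 8.76 at 45 fl and at 6.43, 7.30 and 7.88 at 50 fl. The libraries did not overlap, but the highest of 50 fl and the lowest of 45 fl were nearly level. For UTP8 the fit gave -1.04 (SE 0.33, adjusted p = 0.441, and 0.0455 without replicate C of 50 fl). DIM1, the dimethylase of 18S ribosomal RNA, stood at 8.41, 8.30 and 8.84 and then at 6.01, 7.43 and 8.21. The libraries of 50 fl spanned more than 2 log2 but lay below those of 45 fl, and the fitted change was -1.07 (SE 0.35, adjusted p = 0.441, and 0.0251 without replicate C). The list for RNA polymerases I and III holds their subunits, their initiation factors and the repressor MAF1. Its values were below 0 in 21 of 30 counted genes (median -0.29, and -0.56 without replicate C of 50 fl), and 0 passed by edgeR or DESeq2. RPC34 of polymerase III had -0.81 (SE 0.32) and the shared subunit RPC10 -0.71 (SE 0.33).

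Cytosolic ribosomal protein genes did not share that direction: 63 of 138 lay above 0 and 75 below, with a median of -0.01 (0.18 without replicate C of 50 fl) and 0 passing by edgeR or DESeq2. RPL22A had 0.49 (SE 0.24) and RPS27A -0.36 (SE 0.26). Both have a near-identical partner gene, so their own values are uncertain. Mitochondrial ribosomal protein genes had 31 of 53 above 0 and a median of 0.01 (0.07 without that library).

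**Figure D5:**
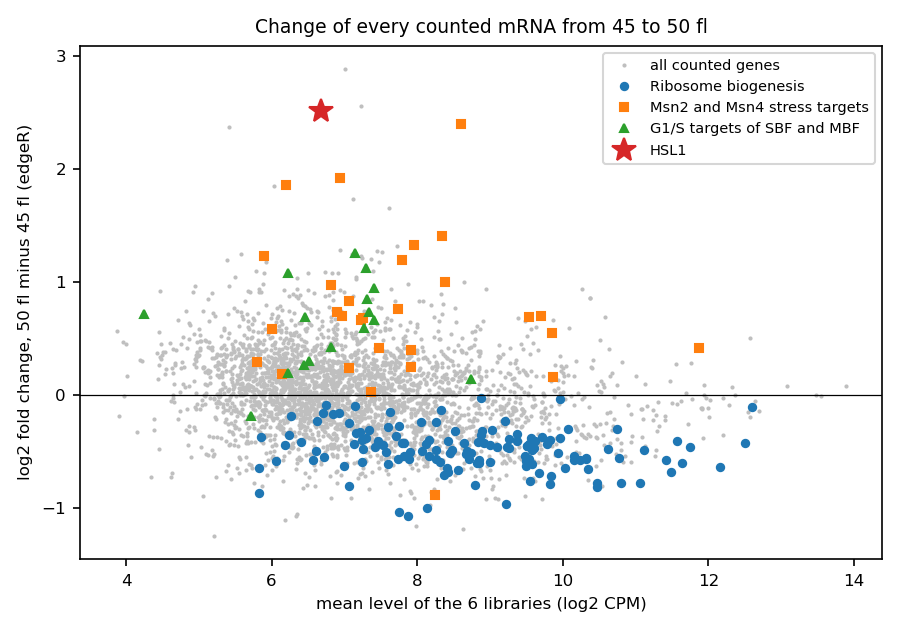
Fitted log2 fold change from 45 to 50 fl against the mean level of the 6 libraries (log2 CPM) for the 3301 counted genes (grey), with 3 lists and HSL1 marked. All 137 ribosome biogenesis genes lie below 0, 15 of 16 G1/S genes and 28 of 29 stress targets above it, and HSL1 at 2.51.

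Translation factors were below 0 in 38 of 42 counted genes (median -0.22, and -0.34 without replicate C of 50 fl), with 0 passing by edgeR or DESeq2. In 11 of them all libraries of 50 fl lay below those of 45 fl, beside 4.3% of all genes. SUI3, the beta subunit of initiation factor eIF2, stood at 11.26, 10.93 and 10.63 and then at 10.16, 9.83 and 10.43, all below 45 fl. Its fitted change was -0.81 (SE 0.26, adjusted p = 0.441). CAF20, a protein that binds the cap-binding factor eIF4E, stood at 9.49, 9.04 and 9.58 and then at 8.43, 8.63 and 8.89, again without overlap (-0.73, SE 0.26, adjusted p = 0.565).

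Proteasome genes were below 0 in 36 of 37 counted (median -0.37, and -0.35 without replicate C of 50 fl), and 14 showed no overlap, beside 4.3% of all genes. Again 0 passed by edgeR or DESeq2. The mean of the list was 8.82, 8.55 and 8.70 at 45 fl and 8.23, 8.48 and 8.23 at 50 fl, so that all 3 libraries of 50 fl, replicate C included, lay below. PRE1, a subunit of the catalytic core, had -0.92 (SE 0.34, adjusted p = 0.567) and RPN7, a subunit of the regulatory lid, -0.57 (SE 0.25). RPN4, the activator of proteasome genes, was the 1 counted member above 0.

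The smallest p among genes with lower levels, none of them passing, belonged to HAM1, SAM4, UTP8, DYS1, SUI3 and YLR363W-A. HAM1, a pyrophosphatase that clears noncanonical purine nucleotides, stood at 7.28, 6.91 and 7.49 and then at 6.34, 6.64 and 6.75 (-0.67, SE 0.21, adjusted p = 0.431). SAM4, which recycles S-adenosylmethionine to methionine, had -0.97 (SE 0.30) and DYS1, the deoxyhypusine synthase that modifies eIF5A, -0.71 (SE 0.23). YLR363W-A, a short ORF, had -1.24 (SE 0.41). In all 6 genes the libraries of the sizes did not overlap, which the rule for naming them required.

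Hexose transport genes had 10 of 17 counted, 10 of 10 above 0 (median 0.37), 5 without overlap (beside 5.45% of all genes) and 0 passing by edgeR. DESeq2 called HXT1 and MIG1, beside 0.273% of all genes. The list's mean was 6.19, 6.03 and 6.02 at 45 fl and 7.00, 6.65 and 6.62 at 50 fl, with no overlap. MIG1 stood at 4.78, 5.38 and 4.74 and then at 6.52, 6.06 and 5.99. Its relative MIG2 stood at 4.60, 4.80 and 5.02 and then at 6.23, 5.79 and 5.91 (1.19, SE 0.41, adjusted p = 0.48). HXT4, a high-affinity transporter, had 0.65 (SE 0.29, overlap).

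Genes of the TCA cycle and respiration were above 0 in 35 of 39 counted (median 0.50, 0 passing by edgeR), and DESeq2 called MDH1, beside 0.273% of all genes. Without replicate C of 50 fl the median was 0.83 and 4 were called higher, beside 0.848% of all genes. COR1, a core subunit of respiratory complex III, stood at 6.67, 5.97 and 6.44 and then at 7.83, 7.82 and 6.21. Its replicate C library of 50 fl lay among those of 45 fl, and the fitted change was 1.08 (SE 0.33, adjusted p = 0.431, and 0.0115 without it).

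Stress targets of Msn2 and Msn4, also read as a sign of handling, were above 0 in 28 of 29 counted of 46 listed (median 0.70, and 1.03 without replicate C of 50 fl), with 0 passing by edgeR or DESeq2. Their mean was 8.10, 6.99 and 7.09 at 45 fl and 8.88, 8.18 and 7.27 at 50 fl. Replicate A was the highest at both sizes, and replicate C of 50 fl lay within the 45 fl range. Summed levels ran from 7106 to 15829 CPM at 45 fl and from 7388 to 24834 CPM at 50 fl. HSP12, a small membrane-associated stress protein, stood at 8.84, 6.25 and 6.93 and then at 10.98, 10.07 and 8.54 (2.40, SE 0.72, adjusted p = 0.431), with overlap by replicate C. GAD1, glutamate decarboxylase, and RTN2, a reticulon, had 1.86 (SE 0.51, adjusted p = 0.423) and 1.92 (SE 0.57, adjusted p = 0.431). Without replicate C of 50 fl, GAD1, RTN2 and OM45 passed by edgeR, where 0.848% of all genes were called higher. Without replicate A of every size, HSP12 (2.83, adjusted p = 0.00706), GAD1 (adjusted p = 0.0158) and RTN2 (adjusted p = 0.0254) passed by edgeR, among 6 calls over all genes. The part of handling in the other results of this step was not tested.

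Glycogen and trehalose genes were above 0 in 11 of 14 counted (median 0.63, 0 passing by edgeR or DESeq2), with the debranching enzyme GDB1 at 1.08 (SE 0.41, no overlap). Glycolysis and fermentation genes were above 0 in 22 of 27 (median 0.20, and 0.34 without replicate C of 50 fl), with GPD1, which makes glycerol phosphate, at 1.08 (SE 0.44) and the glycolytic activator GCR1 at 0.50 (SE 0.22). Chaperone genes under Hsf1 were above 0 in 15 of 26 counted (median 0.06, and 0.28 without replicate C of 50 fl). Their smallest p belonged to SSE2, an Hsp110 chaperone, which stood at 7.44, 6.86 and 6.63 and then at 9.09, 7.94 and 7.16 (1.27, SE 0.40, adjusted p = 0.431, and 0.0441 without replicate C of 50 fl).

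Lipid synthesis, which the study's title names, had 0 genes passing by edgeR or DESeq2 among 18 counted genes of fatty acids (8 above 0, median -0.15, and -0.08 without replicate C of 50 fl), 17 of phospholipids (7 above 0, median -0.11, and -0.20 without it), 22 of ergosterol (5 above 0, median -0.19) and 14 of sphingolipids (9 above 0, median 0.07). OLE1, the delta-9 fatty acid desaturase, stood at 9.52, 11.02 and 10.84 at 45 fl and at 5.98, 10.39 and 10.69 at 50 fl. Its replicate A library of 50 fl was more than 4 log2 below the other libraries of 50 fl, and the fitted change was -0.60 (SE 0.65, adjusted p = 0.815). FAS1, a fatty acid synthase subunit, stood at 9.37, 9.69 and 9.61 and then at 7.81, 9.02 and 9.27, without overlap (-0.74, SE 0.37, adjusted p = 0.672). ACC1, acetyl-CoA carboxylase, had -0.51 (SE 0.33, overlap). CHO1, the phosphatidylserine synthase, had -0.75 (SE 0.29, no overlap) and IDI1, an isomerase of the sterol pathway, -0.54 (SE 0.31, overlap).

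Footprints of the same sizes gave 0 calls among 3301 genes by edgeR (119 at an unadjusted p under 0.05, 3.6%), while DESeq2 called 4 and limma-voom 0. Depth limited this readout: the libraries of 50 fl replicates B and C held 40140 and 54111 reads, with 901 and 1396 genes at 0, against 1210195 to 2120525 reads in those of 45 fl and 1374420 in 50 fl replicate A. The median SD per gene was 1.94 log2 at 50 fl and 0.48 at 45 fl, where for mRNA it was 0.35 and 0.32. HSL1 footprints stood at 6.28, 2.66 and 1.69 at 45 fl, and at 6.51, 0.57 (no reads) and 8.28 at 50 fl. These overlap widely, and the fitted change was 2.29 (SE 1.26, adjusted p = 0.999 by edgeR). It was 5.69 (adjusted p = 0.0181) without replicate A of every size, which left the shallow libraries alone at 50 fl, and 0.64 without replicate C. The 3 smallest p belonged to PSO2, a DNA crosslink repair nuclease, MTC4 and HUT1, a putative nucleotide sugar transporter, each with an adjusted p of 0.683 by edgeR.

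Translational efficiency, the footprint change relative to the mRNA change, gave 0 calls by edgeR (119 at an unadjusted p under 0.05, 3.6%) and 0 by DESeq2 and by limma-voom. HSL1 had a difference of -0.22 log2 (SE 1.29, adjusted p = 1.0). The 3 smallest p belonged to SUA7, the general transcription factor TFIIB, at 5.54 (SE 1.51), EMC6 of the membrane insertion complex at 2.99 (SE 0.82) and FMP16 at -3.82 (SE 1.05), each with an adjusted p of 0.722. FMP16 footprints stood at 6.23, 4.47 and 4.87 at 45 fl and at 4.52 in 50 fl replicate A, with no reads in replicates B and C, so its value rests on libraries in which many genes had none.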

How the data were processed

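Poly(A) mRNA and ribosome footprints were sequenced from 3 pools at each of 8 sizes. The authors deposited whole-number read counts for 3301 genes per assay, without normalization. Tools named in the submitters' processing notes are Bowtie 1.1.2, RSEM 1.2.20, TopHat2 2.1.0, SAMtools 1.3-1, cutadapt 1.8 and bcl2fastq 2.17.1.14, with build R64; the role of each, and the treatment of reads shared by similar genes or of strand, are not given in the sources used here. The assay of each count table was taken from a log2 table per library that the authors deposited: over 3291 genes the mRNA columns differed from its mRNA block by a median of 0.0114 log2 and from its footprint block by 0.539. The table of pooled replicates, for 6713 ORFs, holds log2 values that the authors deposited, centred per gene, and was described only. A further 4 lists of ORF names were not used. Symbols came from a RefSeq table of R64 (3260 of 3301 matched).

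Tests used edgeR 4.0.16 under R 4.3.3 (quasi-likelihood, TMM factors, filterByExpr, which kept all 3301 genes). The 24 mRNA libraries were fitted with 1 coefficient per size and the contrast 50 minus 45 fl was tested, with Benjamini-Hochberg adjustment over all genes and calls at an adjusted p under 0.05. The same was done for footprints, for the difference from the neighbouring steps, and for translational efficiency as the interaction of assay and size over 48 libraries. Levels are log2 CPM with a prior count of 2. The SE is the log2 fold change divided by the square root of F. Alternatives were DESeq2 1.42.0, limma-voom (limma 3.58.1), other size factors and filters, the replicate letter as a block, the 6 libraries alone, and leaving out replicates or libraries. The fits were tested on simulated data. Plots used matplotlib 3.10.9 (Python 3.11.15).

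The comparison, the 38 gene lists and the alternatives were chosen with earlier results of these data known. Named genes were, among calls with no overlap and at least 10 CPM, the 12 largest changes each way (with no call, the 6 smallest p without overlap), the 2 smallest p of each list, a panel of cell cycle and lipid genes, and the 3 smallest p of each other test; not all are printed, and 1 gene that the rule takes is not reported here. The labels describe the pools as independent experimental replicates, and p-values measure the spread between them.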

Additional observations from a re-analysis of the deposited data

How the results depend on the processing

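The count of mRNA calls was 1 in the 6 libraries and stayed at 1 with median-of-ratios size factors, no filter, a filter at 50 reads on average, limma-voom, a replicate block over all sizes, and the 6 libraries with a replicate block. It was 9 with DESeq2, all higher, and 0 with the 6 libraries fitted alone (138 at an unadjusted p under 0.05, edgeR). Leaving out replicate A, B or C of every size gave 0 to 6 calls, all higher. Leaving out 1 of the 6 libraries gave 1 to 35 (higher 1 to 28, lower 0 to 7), and the 35 came without 50 fl replicate C; the cause was not tested. Without 45 fl replicate B and 50 fl replicate C, added after seeing the data, there were 6 calls, 5 higher and 1 lower. Calls among list members were 0, and 3 with DESeq2, 0 to 3 when a replicate was left out of every size, 0 to 16 when 1 library was left out, and 2 without both named libraries. The step differences had 0 calls, with 1 each by DESeq2 and 0 to 3 without a replicate. Footprints had 0 calls, 4 with DESeq2, 2 with the 6 libraries alone, 6 with the 6 libraries and a replicate block, and 0 to 9 without a replicate. Translational efficiency had 0 calls, and 0 to 30 without a replicate, where the most came without replicate A, which left only the shallow libraries of 50 fl. There EMC6 ran from -0.0929 log2 (without replicate C) to 4.11 (without replicate B). Of the 77 genes with mRNA values in the text, 0 changed direction under any of these alternatives and 19 passed under at least 1. Replicate letters did not pair the libraries evenly: the deviations of 45 and 50 fl from their means correlated at 0.753 for A, -0.361 for B and 0.084 for C, across genes. Pairs of unlike letters ran from -0.772 (45 fl A with 50 fl C) to 0.662 (45 fl B with 50 fl C), with 0.468 for 45 fl C with 50 fl B. Neither the fits without a block nor those with the letter as a block take up likeness across letters. Depth limited the footprints of 50 fl, and genes under the count minimum could not be tested.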

Other observations

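Zinc-responsive genes were below 0 in 8 of 9 counted genes (median -0.44 log2, 0 passing by edgeR or DESeq2). IZH2, a membrane protein of zinc homeostasis, stood at 8.53, 9.16 and 10.41 log2 CPM at 45 fl and at 5.88, 8.83 and 8.97 at 50 fl. Replicate A of 50 fl was more than 2 log2 below the other libraries of its size, and the fitted change was -1.18 (SE 0.51, adjusted p = 0.603 by edgeR). SIT1, a siderophore transporter, stood at 6.25, 6.67 and 7.64 and then at 3.83, 6.43 and 6.27, with the same library the lowest. It belongs to the iron list, where 5 of 10 counted genes were above 0 (median 0.02, and -0.03 without replicate C of 50 fl). BIO2, the biotin synthase, stood at 8.53, 8.48 and 9.15 and then at 5.71, 7.74 and 8.31, without overlap. Its fitted change was -1.16 (SE 0.38, adjusted p = 0.441, and 0.0441 without replicate C of 50 fl).

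Cell wall genes were above 0 in 24 of 35 counted genes (median 0.18, 0 passing by edgeR or DESeq2). PSA1, which makes GDP-mannose for wall mannoproteins, stood at 8.15, 8.40 and 8.04 and then at 8.81, 9.91 and 8.52, without overlap (1.00, SE 0.34, adjusted p = 0.441). CWP2, a wall mannoprotein, had 1.22 (SE 0.46, overlap). Amino acid synthesis genes were above 0 in 27 of 43, with GLN1, glutamine synthetase, at 1.08 (SE 0.53, overlap). GIT1, a permease for glycerophosphoinositol, stood at 5.12, 5.36 and 5.74 and then at 6.16, 7.16 and 5.84 (1.08, SE 0.39, adjusted p = 0.567). It belongs to the phosphate list, where 9 of 18 counted genes were above 0 (median -0.11).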
